A study of Mus musculus and Mus musculus musculus x Mus musculus castaneus with 8 samples.

Results

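Myoblast-only open sites are the ATAC-seq peaks of C2C12 mouse myoblasts that share no base with a peak of donor mouse embryonic fibroblasts (MEFs), of MEFs after nuclear transfer (NT) into Xenopus laevis oocytes, or of MEFs transplanted into oocytes made to overexpress Toca1/Fnbp1l. They were chosen from the peak list of 50000 C2C12 cells, where 25389 of 52697 peaks (48.2%) met this rule. Because the rule reads the peaks themselves, this number describes the choice and is not a test result. The sites were narrow and spread over all 20 chromosomes of the lists, and they covered 9.25 Mb. A peak of the list from 1000 C2C12 cells, which the rule did not use, overlapped 651 of them (2.56%), against 5.62% of all 50000-cell peaks.

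ATAC-seq uses a transposase that inserts sequencing adaptors into accessible DNA, so open sites such as promoters and enhancers collect reads. Promoters of widely used genes tend to be open in many cell types, whereas enhancers, which often lie far from the genes they act on, differ more between cell types. In muscle precursors the factors MyoD and Myf5 bind such elements and turn on the genes of the contractile apparatus. Fibroblasts come from related mesenchymal tissue but do not use this program, and an oocyte adds its own factors to the nuclei placed in it.

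The study asked how open chromatin of somatic nuclei changes in oocytes, and used C2C12 cells to set up the assay for few cells. Untreated C2C12 cells, a cultured myoblast line of C3h origin, gave 2 libraries of 50000 cells and 2 of 1000 cells. Permeabilized MEFs, from embryos of a cross with Mus musculus castaneus, gave 1 library of 3000 cells before NT, 2 libraries of 3000 cells 48 h after NT and 1 library of 3000 cells 48 h after NT with Toca1/Fnbp1l, an actin-polymerizing factor. The authors deposited 1 list of peaks per condition, with 0.01 as the limit on the false discovery rate, so no spread between replicates can be given. C2C12 cells and MEFs differ in strain, culture and library as well as cell type, and these cannot be told apart here. The lists give positions without scores or read numbers, so the depth is unknown and a site absent from a list is one that was not called there. Peaks of 1 list are not replicates, so no p-value is given, and the 95% Wilson intervals cover counting error over peaks only. Positions are 1-based in mm9, the build in the submitters' processing notes.

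The MEF list before NT accounted for most of what the rule removed. Of the 50000-cell C2C12 peaks, 25513 overlapped a donor MEF peak, and 1795 more overlapped no donor peak but a peak after NT. Of these 1795 peaks, 1303 were met by a Toca1/Fnbp1l peak only, 229 by a peak of control NT only and 263 by both. What remained, 48.2% of the list (interval 47.8% to 48.6%), are the myoblast-only sites.

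Few sites lay right at the edge of the rule, and more lay near it. The site closest to an excluded peak, on chromosome 4 from 53417784 to 53417933, touched a donor MEF peak with 0 bp between them. On the other side, 3 C2C12 peaks were left out for an overlap of 1 bp. One of them lies on chromosome 2 from 179839006 to 179839401, where it met a Toca1/Fnbp1l peak. Within 100 bp of an excluded peak there were 557 myoblast-only sites, and 241 peaks were left out for an overlap of 100 bp or less. Within 500 bp of an excluded peak lay 2639 myoblast-only sites (10.4%), and within 1000 bp 3851 (15.2%). The median distance from a myoblast-only site to the nearest donor MEF peak was 11956 bp, with quartiles of 3639 and 32182 bp. At more than 50000 bp from any donor peak lay 4226 sites, and 273 lay more than 500000 bp away.

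Myoblast-only sites were narrower than the other peaks of their list. Their median width was 318 bp, with quartiles of 246 and 438 bp, against 495 bp (338 and 708 bp) for the 27308 C2C12 peaks that met an excluded list. Donor MEF peaks that met no 50000-cell C2C12 peak, the 14030 fibroblast counterparts of these sites, had a median of 338 bp. Of the myoblast-only sites, 6654 were narrower than 250 bp (26.2%) and 143 were 1000 bp or wider (0.563%). Among the other C2C12 peaks these shares were 8.40% and 7.10%. The myoblast-only share fell from 76.4% in the narrowest 10% of the list to 11.3% in the widest 10%. A wider peak has more bases that can meet another peak, so width and the rule are not independent, and these widths are a description.

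**Figure D1:**
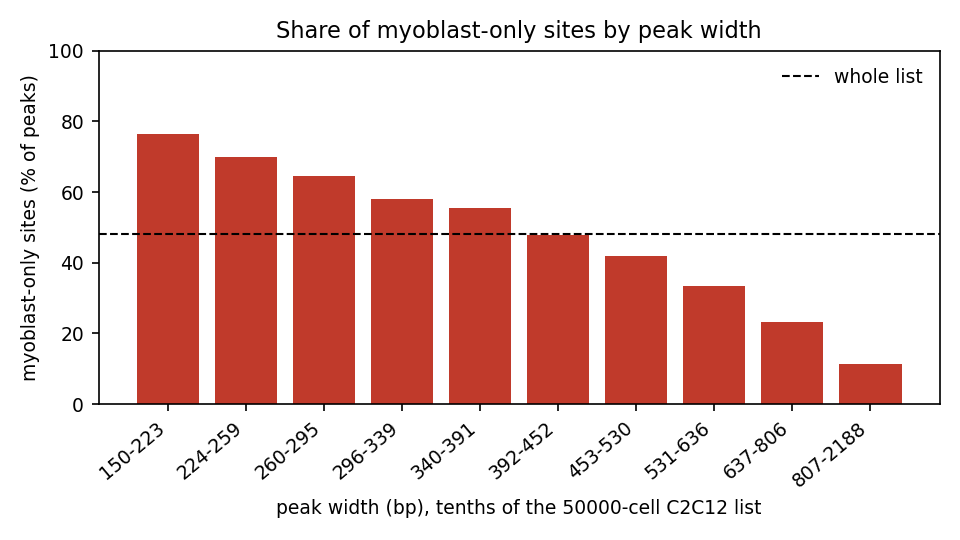
Share of myoblast-only sites (y axis, percent of peaks) in 10 classes of equal number of the 50000-cell C2C12 list, ordered by peak width (x axis, bp). The bars fall from 76.4% among peaks of 150 to 223 bp to 11.3% among peaks of 807 to 2188 bp, and the dashed line marks the 48.2% of the whole list.

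The widest sites show what a broad myoblast-only region looks like. The widest of all, 1818 bp, lies on chromosome 2 from 151355017 to 151356834. A donor MEF peak lay 3326 bp away. It was also called from 1000 cells. The lists hold no gene names, so a region was placed between marker genes, which are genes that the study's supplementary tables give as closest to an after-NT peak, and the genes between the markers were read from the order of the RefSeq gene table. By these markers the widest site lies between Vsx1, a homeobox gene, and the defensin gene Defb23. The second, 1417 bp wide, lies on chromosome 18 from 46963853 to 46965269, with 44450 bp to the nearest donor peak. The third, on chromosome 15 from 26238319 to 26239715, is 1397 bp wide and 256767 bp from any donor peak. The fourth is 1358 bp wide, on chromosome 4 from 124888486 to 124889843, between Rspo1, a secreted activator of Wnt signalling, and Csf3r, the receptor for granulocyte colony-stimulating factor. The fifth is 1319 bp wide, on chromosome 14 from 37923218 to 37924536. None of the last 4 was called from 1000 cells, although a 1000-cell peak lay 405 bp from the site on chromosome 4.

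The share of myoblast-only sites differed between chromosomes by more than the counting error. It was highest on chromosome 12 (56.6%, interval 54.5% to 58.7%, 1225 sites), followed by chromosome 10 (53.3%, 51.6% to 55.1%) and chromosome 15 (53.3%, 51.5% to 55.1%). It was lowest on chromosome 7 (40.4%, 38.5% to 42.3%, 1042 sites) and chromosome 9 (42.7%, 40.8% to 44.7%). Chromosome 12 also had the lowest share of donor MEF peaks that met no C2C12 peak, 29.2%. Per Mb of the span of the lists, chromosome 15 held the most myoblast-only sites, 15.4, and chromosome X the fewest, 3.68, against 9.62 over all chromosomes. The number of copies of a chromosome in the C2C12 and MEF cells was not measured, and its part in these shares was not tested. Median widths varied little between chromosomes, from 303 bp on chromosome 6 to 326 bp on chromosome 14.

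**Figure D2:**
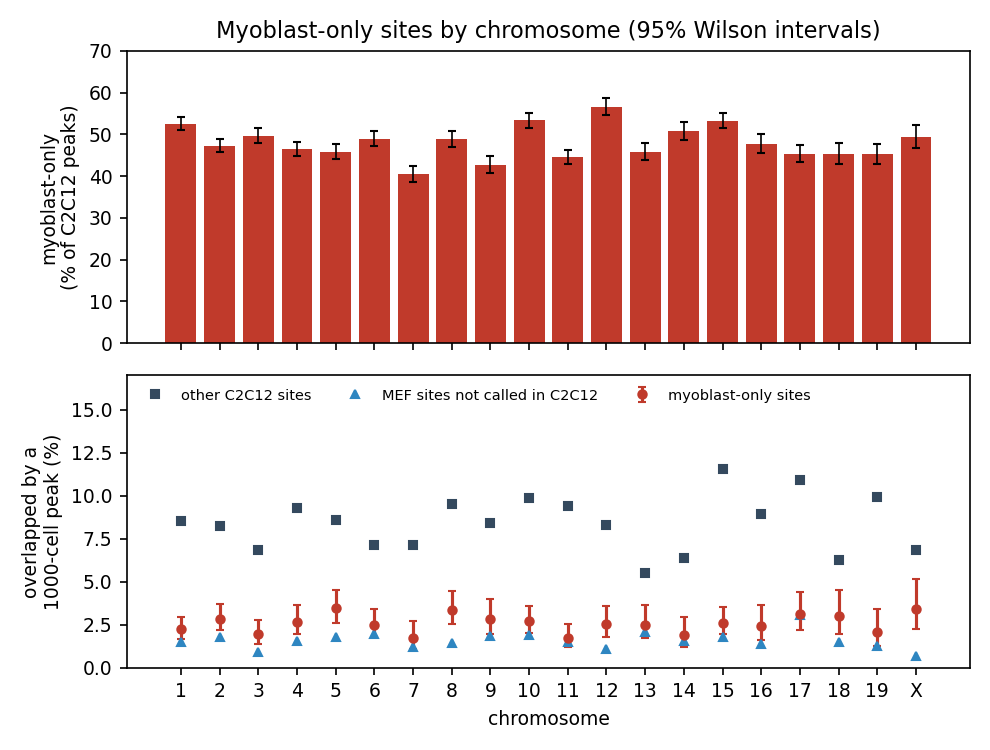
Top, share of myoblast-only sites among the 50000-cell C2C12 peaks of each chromosome (y axis, percent, with 95% Wilson intervals). Bottom, share overlapped by a 1000-cell C2C12 peak for myoblast-only sites (circles with intervals), other C2C12 peaks (squares) and donor MEF peaks not called in C2C12 (triangles); squares lie above circles on 20 of 20 chromosomes and circles above triangles on 20 of 20, by small margins on some, such as chromosome 17 (3.12% and 3.09%).

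Along a chromosome, many myoblast-only sites had a close neighbour of their own kind. Of all sites, 10756 (42.4%, interval 41.8% to 43.0%) lay within 10 kb of another myoblast-only site, and 3839 (15.1%) within 1000 bp. For the other C2C12 peaks, which are similar in number, the share within 10 kb of their own kind was 46.3%, and for the sparser fibroblast counterparts it was 24.4%. Of all 50000-cell peaks, 63.5% had another peak of the list within 10 kb. The median gap to the nearest myoblast-only site was 13666 bp. Thus the sites were set no more tightly than the C2C12 peaks shared with MEF samples, and sets of different number are not comparable on this measure.

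**Figure D3:**
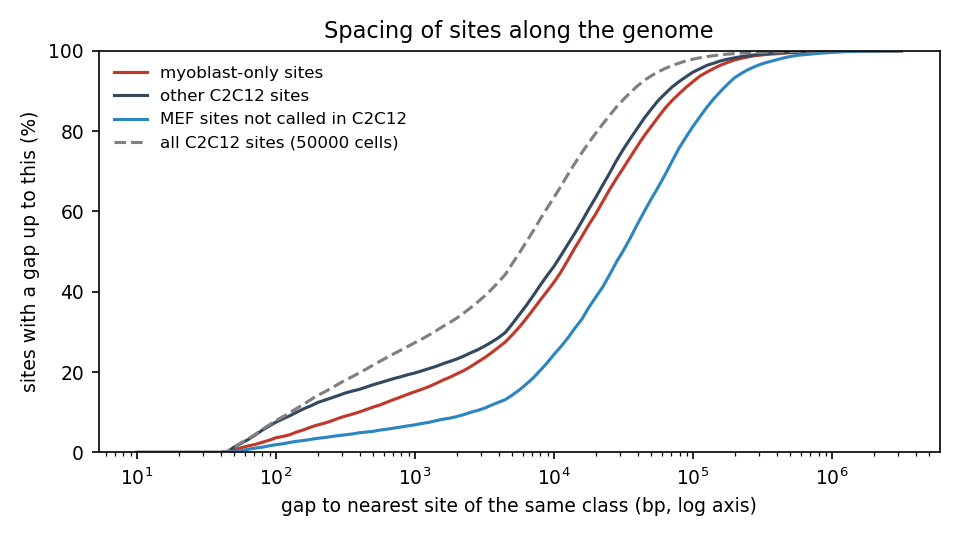
Share of sites (y axis, percent) whose nearest site of the same class lies within a given gap (x axis, bp, log axis). Myoblast-only sites lie below the other C2C12 peaks, at 15.1% and 19.8% within 1000 bp and at 42.4% and 46.3% within 10 kb, and above the fibroblast counterparts, at 24.4%; the dashed line gives all 50000-cell peaks, at 63.5%.

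A measure that reads the order of peaks, without setting a distance, is whether the next peak of the list is again myoblast-only. After a myoblast-only site the next C2C12 peak was myoblast-only in 53.4% of cases (interval 52.8% to 54.0%), 5.21 percentage points above the 48.2% of the list. Among donor MEF peaks the corresponding excess was 7.46 percentage points. The myoblast-only excess was 2.63 percentage points when only reciprocal overlaps of at least 50% counted for the rule, and 9.88 when peaks within 500 bp counted as overlapping. The difference was widest between neighbours under 1000 bp apart, where the next peak was myoblast-only in 56.8% of cases after a myoblast-only site and in 35.0% after another C2C12 peak. From 1000 to 5000 bp the shares were 53.1% and 49.2%, and beyond 100000 bp they were 59.3% and 48.3%. The same excluded peak, or several close together, can meet both of a pair of close C2C12 peaks. At short gaps this measure and the rule are thus not independent, and these shares are a description.

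Uninterrupted runs of myoblast-only sites were mostly short. The list broke into 11838 runs, of which 6005 held 1 site. Runs of 10 or more numbered 143 and held 1717 sites (6.76%). When sites with gaps of at most 10 kb were grouped, 14633 stood alone, and 2 groups held 10 sites or more. The larger of these, 11 sites in 43048 bp on chromosome 10 from 44996376 to 45039423, enclosed 1 donor MEF peak and 1 Toca1/Fnbp1l peak.

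The longest run held 37 sites in 1.93 Mb on chromosome 1, from 130556274 to 132485624. Between its sites lay 2 donor MEF peaks and 1 Toca1/Fnbp1l peak. Its sites were 168 to 1038 bp wide with a median of 376 bp, and the gaps between them ranged from 49 to 344779 bp. Marker genes place it between Map3k19 and Avpr1b, an interval of 3.76 Mb in which RefSeq orders 30 protein-coding genes. Among them are Cxcr4, a chemokine receptor that guides migrating precursor cells, Thsd7b, and the cytokine gene Il10. Of its 37 sites 3 were called from 1000 cells, at 130721514 to 130722114, 131485634 to 131486463 and 132358791 to 132359828.

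The next runs were of different kinds. A run of 20 sites on chromosome 1 from 147460855 to 151465211 spread over 4004357 bp in which none of the 3 excluded lists held a peak, and a donor MEF peak lay 87183 bp from it. It lies between the markers Nek7 and Hmcn1, 12.3 Mb apart, where RefSeq orders genes such as Brinp3, Pla2g4a and the regulators of G protein signalling Rgs1, Rgs2 and Rgs18. A run of 19 sites on chromosome 10 from 45731795 to 49039216 was also sparse, with a median gap of 67040 bp. Another 19 sites lay on chromosome 15 from 86066755 to 87395241, between Cdpf1 and Zdhhc25, with Celsr1, a planar cell polarity cadherin, among the 9 genes between. This run enclosed 3 donor MEF peaks, 3 peaks after control NT and 1 Toca1/Fnbp1l peak, and none of its sites was called from 1000 cells. The most compact of the 5 longest, 19 sites within 516424 bp on chromosome 4 from 102246954 to 102763377, lies between Dnajc6 and Prkaa2, where Pde4b, a cyclic AMP phosphodiesterase, is among 22 genes. Of its sites 2 were called from 1000 cells.

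In windows of 1 Mb the number of myoblast-only sites had a median of 9 and a maximum of 41, and 403 of 2649 windows held none. The densest 10% of windows held 27.0% of the sites. For the other C2C12 peaks the corresponding share was 29.1% and for the fibroblast counterparts 28.9%. Windows rich in myoblast-only sites were also rich in other peaks. Across the 2404 windows with a C2C12 or donor MEF peak, Pearson's r of the number of myoblast-only sites was 0.64 with other C2C12 peaks, 0.60 with donor MEF peaks and 0.37 with fibroblast counterparts, and 0.43 with 1000-cell peaks that met no 50000-cell peak. These values describe windows that share libraries, mappability and gene density, and no p is attached. Windows without any donor MEF peak held 336 myoblast-only sites in 105 windows.

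The window with most sites, 41 among 57 C2C12 peaks, was chromosome 1 from 195000001 to 196000000. Its neighbour from 194000001 to 195000000 held 37 among 53. The second lies between the markers Slc30a1 and Mir205, among genes that include Traf5 and Hhat, which attaches palmitate to hedgehog proteins. The first spans Mir205 and reaches towards Mir3962, and Plxna2, a semaphorin receptor, is among the genes between its markers. The most compact run of 10 or more sites, chosen after its values were seen, lay in the first of these windows. It held 13 sites in 70190 bp, from 195138673 to 195208862, with widths from 202 to 806 bp and a median gap of 4799.5 bp. The first site there runs from 195138673 to 195138975, the sixth from 195164593 to 195165218 (626 bp) and the last from 195208057 to 195208862 (806 bp). No excluded list held a peak within the run, and a donor MEF peak lay 226 bp from it. None of the 13 sites was called from 1000 cells.

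Another of the densest windows, chromosome 1 from 137000001 to 138000000, held 38 myoblast-only sites among 73 C2C12 peaks, with 43 donor MEF peaks of which 11 had no C2C12 partner. Its markers, Rabif and Inava, lie 1.70 Mb apart with 28 genes in that interval. Of these, Tnnt2 and Tnni1, which encode troponins of cardiac and slow skeletal muscle, are on a list of 45 myogenic genes. The others include further genes of muscle, such as Cacna1s and Igfn1, and genes of epithelial and other cells such as Elf3, Lad1, Pkp1 and Syt2. The other windows among the 5 densest were chromosome 8 from 96000001 to 97000000 with 38 sites and chromosome 6 from 72000001 to 73000000 with 37. They held 60 and 74 C2C12 peaks, so the share on chromosome 6 was close to the 48.2% of the list. In the window on chromosome 8, 3 myoblast-only sites were called from 1000 cells.

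The 45 myogenic genes and a list of 30 fibroblast genes were looked up between marker genes in the same way, keeping genes whose interval was at most 2000000 bp. This placed 16 myogenic genes in 14 intervals and 9 fibroblast genes in 9. Myod1, Myf5, Myf6, Pax3 and Des, among others, lay in wider intervals and were not resolved. The 14 myogenic intervals held 126 myoblast-only sites against 75 fibroblast counterparts, and the 9 fibroblast intervals held 113 against 118. Per Mb this was 15.8 and 9.40 sites in the myogenic intervals and 13.7 and 14.3 in the fibroblast intervals. Over the span of the lists it was 9.62 and 5.32, from 25389 sites and 14030 counterparts. Relative to counterparts, the myogenic intervals were thus no richer in myoblast-only sites than the lists as a whole. Of the 50000-cell C2C12 peaks there, 41.6% were myoblast-only in the myogenic intervals and 38.4% in the fibroblast intervals, against 41.8% over the intervals of all protein-coding genes and 48.2% of the list, so by this share the myogenic intervals held no excess. More myoblast-only sites than fibroblast counterparts were found in 8 of the 14 and in 2 of the 9. Of 2298 intervals around any protein-coding gene, 62.2% had more myoblast-only sites, and the median was 12.9 per Mb, against 13.6 for the myogenic and 14.6 for the fibroblast intervals. An interval holds several genes, and a site in it is not assigned to any of them.

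Single intervals varied widely. Tnnt2 and Tnni1, which share an interval of 0.649 Mb between Nav1 and Inava, had 30 myoblast-only sites there, 46.2 per Mb, with 6 fibroblast counterparts. Of the 2298 intervals 31 were denser. The Tnnt2 interval also held 28 other C2C12 peaks, so 51.7% of its C2C12 peaks were myoblast-only, near the 48.2% of the list. The 30 sites were 178 to 834 bp wide, and the 1 called from 1000 cells runs from 137679404 to 137679676. Megf10, a receptor of muscle satellite cells, had 17 sites and 3 fibroblast counterparts in 0.713 Mb. Pax7, the satellite cell factor, had 6 sites and 2 counterparts in 0.280 Mb, and Myog, which drives myoblast differentiation, had 2 and 2 in 0.144 Mb. Cdh15, a cadherin of myoblasts, went the other way, with 7 sites and 14 counterparts in 0.762 Mb. So did Rapsn (5 and 6), Acta1 (3 and 5) and Chrnb1 (4 and 5), and Tnnt1 was even (2 and 2). The remaining myogenic intervals had more sites than counterparts. Of the C2C12 peaks, 54.8% were myoblast-only at Megf10, 66.7% at Pax7 and at Myog, with few peaks, and 30.4% at Cdh15. On the fibroblast side, Thy1, a surface marker of fibroblasts, had 7 sites and 20 counterparts in 1.99 Mb, and Prrx2, a mesenchymal homeobox gene, had 8 and 17 in 0.445 Mb. Pdgfrb, a growth factor receptor of mesenchymal cells, had 30 sites and 16 counterparts in 1.04 Mb. Mfap5 likewise had more sites, 23 and 6, and Snai1 was even, 19 and 19. The remaining fibroblast intervals had fewer sites than counterparts. Of the C2C12 peaks, 22.6% were myoblast-only at Thy1, 34.8% at Prrx2 and 45.5% at Pdgfrb.

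The list from 1000 C2C12 cells gave a readout that the rule did not use. It overlapped 2.56% of the myoblast-only sites (651, interval 2.38% to 2.77%) and 8.47% of the other C2C12 peaks (2312 of 27308, 8.14% to 8.80%), against 5.62% of all 50000-cell peaks. Fibroblast counterparts, which were not called open in 50000 C2C12 cells, were overlapped in 1.63% of cases (228 of 14030, 1.43% to 1.85%). The myoblast-only share was thus above that of sites not called in C2C12 and below that of sites shared with MEF samples, by more than the counting error in both directions. The difference of 5.90 percentage points from the other C2C12 peaks was found in the same direction on 20 of 20 chromosomes. It was 1.94 percentage points, with a recovery of 1.23%, when only reciprocal overlaps of at least 50% counted, and recovery was 4.51% when peaks within 500 bp counted as overlapping. These settings changed the rule and the recovery alike. When peaks narrower than 250 bp were dropped from every list, including that of 1000 cells, recovery was 1.71%, whereas with the lists left whole it was 2.84% for myoblast-only sites of 250 bp or more.

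Recovery rose with width. Under 300 bp, 1.72% of myoblast-only sites (interval 1.49% to 1.97%) and 1.51% of fibroblast counterparts (1.21% to 1.89%) were overlapped, a difference within the counting error. From 300 bp to under 500 bp the shares were 2.51% (2.21% to 2.84%) and 1.54% (1.28% to 1.87%). At 500 bp or more they were 4.92% (4.32% to 5.61%) and 2.11% (1.60% to 2.79%). The other C2C12 peaks stood at 2.66%, 5.20% and 12.7% in these classes. The 651 recovered sites were wider (median 392 bp) than those not recovered (median 316 bp). When the list was split by width into classes of 25% each, the difference between other C2C12 peaks and myoblast-only sites was 0.661, 1.81, 3.64 and 8.52 percentage points from the narrowest to the widest class, and 2.48 when these classes were weighted by their myoblast-only sites.

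**Figure D4:**
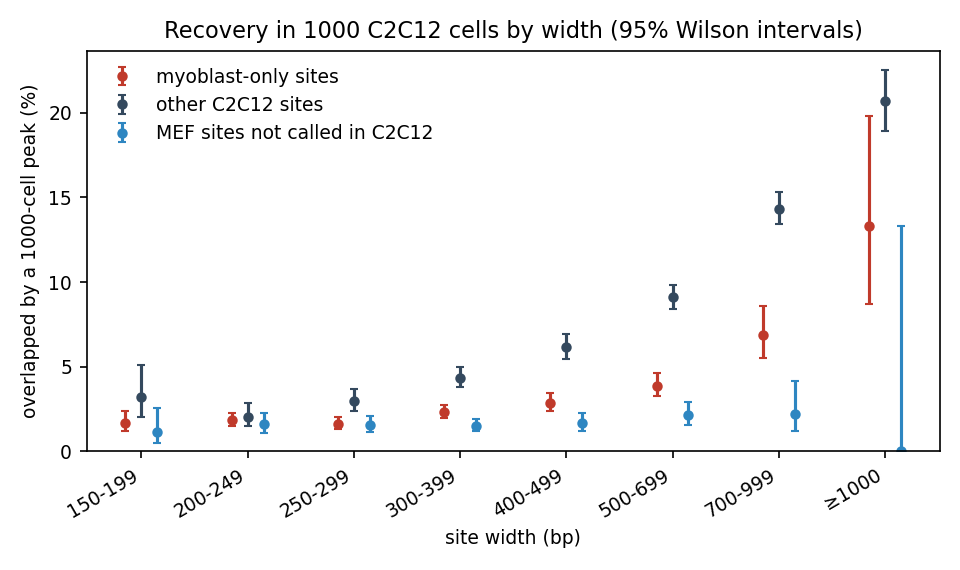
Share of sites overlapped by a 1000-cell C2C12 peak (y axis, percent, with 95% Wilson intervals) by site width (x axis, bp). Myoblast-only sites rise from 1.68% at 150 to 199 bp to 13.3% at 1000 bp or more and lie between the other C2C12 peaks and the fibroblast counterparts in 8 of 8 classes, with overlapping intervals in the narrow ones; the widest class holds 143, 1938 and 25 sites, so its intervals are broad.

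Coverage by 1000-cell peaks was highest at the centre of the sites. A 1000-cell peak covered the centre of 1.60% of myoblast-only sites, and at 3000 to 5000 bp from the centre it covered 0.510% of positions on average. For the other C2C12 peaks the values were 5.12% and 0.468%, and for the fibroblast counterparts 0.955% and 0.489%. The level away from the centre was thus close in all 3 classes. On a recovered myoblast-only site the 1000-cell peak had a median width of 278 bp and covered a median of 50.5% of the site. The centres lay within 100 bp of each other for 310 of the 651 (47.6%, interval 43.8% to 51.5%), with a median offset of 107 bp, and for 44.4% of all recovered C2C12 peaks, a value inside that interval. At 10 of the 651, the 1000-cell peak itself also reached a peak of an excluded list.

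**Figure D5:**
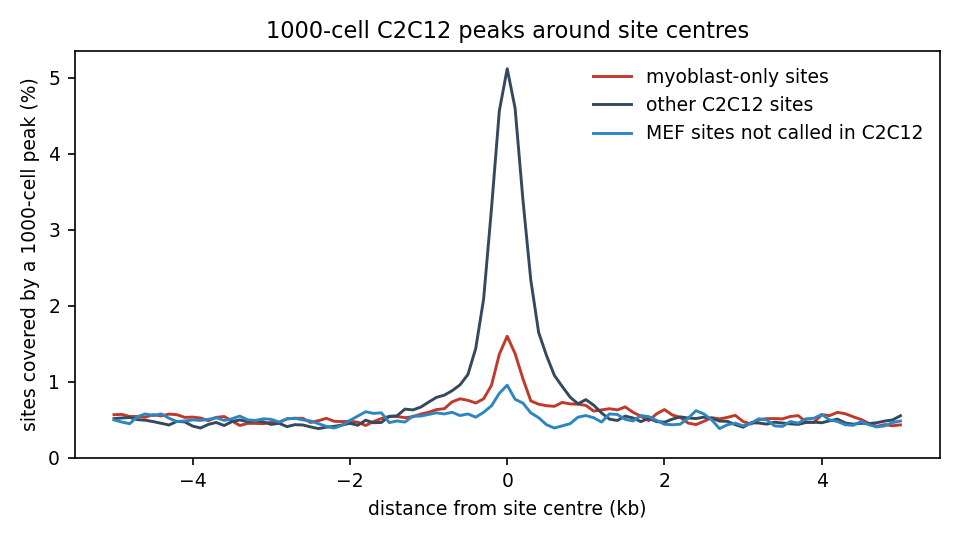
Share of sites covered by a 1000-cell C2C12 peak (y axis, percent) at each distance from the site centre (x axis, kb), in steps of 100 bp. Myoblast-only sites peak at 1.60% at the centre, between the other C2C12 peaks (5.12%) and the fibroblast counterparts (0.955%), and all 3 curves lie near 0.5% from 3 kb outwards.

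Recovery did not rise or fall steadily with the length of a run or the distance to a donor peak. It was 2.58% for sites standing alone in the list and 2.68% for sites in runs of 10 or more (intervals 2.21% to 3.01% and 2.01% to 3.55%). By distance to the nearest donor MEF peak it was 2.39% under 500 bp (interval 1.82% to 3.11%), 3.07% from 500 to 5000 bp (2.647% to 3.56%), 2.38% from 5000 to 50000 bp (2.13% to 2.646%) and 2.60% beyond (2.16% to 3.13%). The second and the third of these intervals did not overlap, by a narrow margin. By chromosome it ranged from 1.73% on chromosome 7 to 3.45% on chromosome 5, and these 2 intervals overlapped (1.10% to 2.71% and 2.63% to 4.52%). The interval of chromosome 11 (1.75%, 1.20% to 2.55%) did not overlap that of chromosome 5, by a narrow margin. Seen from the other list, 645 of its 34771 peaks met a myoblast-only site (1.85%), 2316 met another C2C12 peak (6.66%) and 31821 met none.

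Beside the widest site on chromosome 2, the widest recovered myoblast-only sites were the following. A site of 1296 bp on chromosome 1 from 194632229 to 194633524 lies in the window from 194000001 to 195000000 with its 37 sites, 7146 bp from a donor MEF peak. A site of 1242 bp on chromosome 15 from 93564210 to 93565451 lies between Prickle1 and Nell2, with Adamts20, Pus7l, Irak4, Twf1 and Tmem117 between these markers. Adamts20 is a secreted metalloprotease and Twf1 binds actin monomers. A site of 1223 bp on chromosome 8 from 47825891 to 47827113 lay only 695 bp from a donor peak. The fifth, 1203 bp on chromosome 9 from 123718063 to 123719265, lies beyond Slc6a20a, the last marker of that chromosome.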

How the data were processed

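ATAC-seq peak lists of 5 conditions (8 libraries) were used. Per the labels, Bowtie2 2.2.1, Picard, MACS2 2.1 and mm9 were used by the submitters; their settings, filters and how libraries were pooled are not given in the sources used here. The deposited lists hold peak starts and ends in bp, without scores. Lists were assigned to conditions by their names. Overlap meant at least 1 bp. Gaps were measured edge to edge, and windows of 1 Mb took sites by their centre. Shares have 95% Wilson intervals. Simulated peaks with known overlaps were used to test the code. Libraries of 1000 cells skipped the purification kit used for the others.

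Marker genes had a start within 50000 bp of an after-NT peak in the study's tables; 2294 of 2296 gene names matched RefSeq (GRCm38.p6), 2015 positions were used and 12 out of order were dropped. RefSeq positions were not used. Named regions were the 5 widest sites, the 5 widest recovered sites, the 5 longest runs, the 5 densest windows and the sites at the threshold. Sites and lists were chosen with earlier results of these data known. No genome of the lists' build was used, so sequences are not analysed here. Python 3.11.15, numpy 2.4.6, scipy 1.17.1 and matplotlib 3.10.9 were used.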

Additional observations from a re-analysis of the deposited data

How the results depend on the processing

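Of 39 values recalculated under other settings, 16 were counted as unchanged and 23 as moved. Unchanged meant inside the interval of the main value or, for the number of sites, within 1.5 times of 25389. Only the next-peak excess and the recovery difference could change sign, and neither did. The number of sites ran from 19855, when peaks under 250 bp were dropped from every list, to 30017 with a reciprocal overlap of at least 50%. With peaks up to 150 bp apart joined, the sites had a median width of 324 bp, 38.5% of them lay within 10 kb of another and the next-peak excess was 4.39 percentage points. With peaks under 250 bp dropped from every list, including that of 1000 cells, these were 371 bp and 37.0%, recovery was 1.71% and its difference from other C2C12 peaks 4.96 percentage points. A reciprocal overlap of at least 50% gave 327 bp, 46.5%, an excess of 2.63, recovery of 1.23% and a difference of 1.94 percentage points. Counting peaks within 500 bp as overlapping gave 321 bp, 39.9%, 9.88, 4.51% and 6.48. Excluding the donor MEF list only gave 321 bp, 43.8% and 3.84. Within 5 kb 29.2% and within 50 kb 81.1% of sites had a neighbour. Within width classes of 25% the recovery difference was 2.48 percentage points. Fewer or stricter overlaps follow from these settings by construction; otherwise the cause was not tested. Leaving out chromosome X moved none of these values past their intervals. No paired analysis was possible because each condition has 1 list and no test was run, and for the same reason no replicate could be left out. Without scores or read numbers, a stricter peak threshold could not be applied, and absence from a list cannot be told apart from low depth.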

Other observations

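In several lists gaps between consecutive peaks were unevenly distributed near 5 kb. Gaps were counted in classes of 3 to under 4, 4 to under 5 and 5 to under 6 kb. Among myoblast-only sites the step was small, with 459, 478 and 508 gaps, and no interval was computed for it. In the list from 1000 cells the numbers were 422, 503 and 717, and in the donor MEF list 834, 998 and 1150. In the 50000-cell list they were 1466, 1666 and 1683. After control NT they were 20, 23 and 53, and with Toca1/Fnbp1l 88, 143 and 230. This was noticed after the spacing had been plotted, and its source was not tested.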
